A study of Mus musculus with 7 samples.

Results

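Collagens are triple-helical proteins. They give the wall of the aorta its tensile strength and form the sheets on which its endothelium and smooth muscle rest. Each molecule is built from 3 chains, and each chain has its own gene, so a cell type is characterised by the set of chains it transcribes. Fibrillar collagens such as types I and III bear load in the adventitia and media. Type IV forms the network of basement membranes, and the smaller families link, cap or decorate fibrils. The genes described here are those whose symbol consists of Col, a type number, the letter a and a chain number. That rule found 44 of the 31253 genes in the count matrices, and it used no measured value. By role they comprise 11 fibrillar chains, 6 basement membrane chains of type IV, 3 short chain network chains and 6 beaded filament chains of type VI. The others are 9 fibril-associated chains, 4 transmembrane chains, 2 multiplexins and 3 chains listed together, Col7a1, Col28a1 and Col26a1.

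The study profiled single cells of the mouse aorta on the BD Rhapsody platform, a microwell system that tags each captured transcript with a cell barcode and a unique molecular identifier (UMI). Control mice carried floxed alleles of Slc38a2 and are labelled Slc38a2flox/flox; the other mice are labelled Slc38a2deltaEC, a deletion of this gene in the endothelium. Slc38a2 encodes SNAT2, which carries neutral amino acids into cells together with sodium. All mice of both genotypes were fed a high-salt diet for 3 weeks, so neither group shows the aorta on a normal diet. The Cre driver, strain, sex and age were not stated in the labels. There were 3 flox control libraries and 4 knockout libraries. The labels do not state whether each came from 1 animal or from a pool, so a p-value here reflects how libraries vary, which may be technical.

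The libraries held 6167 to 13792 barcodes and 22646246 to 73102988 UMIs, and 67477 of 76359 barcodes were kept. Pairs of libraries shared 1.10% to 1.79% of the barcode sequences of the smaller library. Levels are given in CPM, the UMIs of a gene per 1000000 UMIs of the gated cells. Flox control 1 stood apart from the other 6 libraries in markers of other cell types, in its macrophages and in other gates. Its macrophages carried 1426 CPM of the fibroblast marker list and 943 CPM of the smooth muscle marker list, against 205 to 699.5 CPM and 130 to 314 CPM in the other libraries. It also held 574 of the 926 cells that met the fibroblast and the smooth muscle gates together, and these cells were left out. In its lymphocytes the fibroblast list read 1578 CPM, against 246 to 606 CPM in the other libraries. For the smooth muscle list it was not alone there, at 936 CPM in flox control 1 and 1058 CPM in knockout 3. The smooth muscle list read 876 CPM in its fibroblasts, against 123 to 452 CPM in the other libraries. The fibroblast list read 1792 CPM in its smooth muscle cells, against 677 to 1068 CPM. Results that rest on flox control 1 are given without it as well. Slc38a2 itself stood at 429.7, 377 and 305 CPM in endothelial cells of the 3 control libraries and at 202, 276, 335 and 271 CPM in those of the 4 knockout libraries. These ranges overlapped, and the difference did not pass the test (log2 fold change -0.37, SE 0.22, edgeR adjusted p 0.811). Nor was it particular to endothelium. The log2 fold change of Slc38a2 was -0.39 (SE 0.27) in fibroblasts, -0.45 (SE 0.20) in macrophages and -0.07 (SE 0.19) in smooth muscle, and none of these passed. Which part of the gene was deleted is not stated in the labels, so UMIs counted outside it would not show the deletion.

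Cells were sorted in silico by counts of marker genes, none of which is a collagen. The gates held 1079 endothelial cells (46 to 407 a library), 16894 smooth muscle cells, 32750 fibroblasts, 82 Schwann cells, 3779 macrophages and 464 lymphocytes. GEO's cell type field reads goblet cells for these libraries, and 0 of the 67477 kept cells met a goblet marker gate, which allows up to 3 such cells. The endothelial gate was led by its own 10 markers at 10410 to 14712 CPM, and carried 404 to 1261 CPM of smooth muscle markers and 544 to 1528 CPM of fibroblast markers. A further 684 cells carried at least 2 of 11 chondrocyte markers. Of these, 597 also met the smooth muscle gate and 609 had exactly 2 chondrocyte markers, and their smooth muscle markers stood at 19199 to 32238 CPM. They are therefore called chondrocyte-marker cells below (chondrocyte-like in the plots), and not chondrocytes. Fibroblast states, named after genes of their marker lists, held 4813 (Fmod/Hhip), 3312 (inflammatory, by Il6, Lif, Cxcl1 and Ptgs2), 4872 (Pi16/Dpp4) and 420 cells (Cilp/Myoc/Angptl1). Of the 32750 fibroblasts, 13417 met 1 state gate. A further 11727 met more than 1 and 7606 met none, and these were placed in no state. The Pi16/Dpp4 gate took any 3 of 6 markers, so its cells need not carry Pi16 or Dpp4.

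Fibroblasts devoted the largest share of their UMIs to collagens of the 5 cell types compared, smooth muscle cells an intermediate share and endothelial cells a small one. The 44 genes together made up 2.78% ± 0.429 of fibroblast UMIs (SD, n = 7 libraries), 0.758% ± 0.0727 of smooth muscle UMIs and 0.242% ± 0.0567 of endothelial UMIs. They made up 0.904% ± 0.114 in chondrocyte-marker cells and 1.13% ± 0.380 in Schwann cells, 1 of whose 7 libraries was a single cell. Macrophages and lymphocytes read 0.0623% ± 0.0518 and 0.0735% ± 0.0466, and flox control 1 was the highest macrophage library. With each library's lymphocyte level subtracted, the endothelial share was 0.168% and the smooth muscle share 0.684%. Among fibroblast states the share ran from 2.38% ± 0.432 in Pi16/Dpp4 cells to 3.26% ± 0.292 in Fmod/Hhip cells, with overlapping libraries.

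The makeup of the collagen UMIs differed as well as their amount. UMIs are not divided by transcript length, so the shares below are compared between cell types and not between collagen types. Type I chains supplied 65.1% ± 2.86 of fibroblast collagen UMIs, 36.8% ± 1.00 of those of smooth muscle and 17.6% ± 6.60 of those of endothelium. Type IV chains showed the opposite order, at 36.2% ± 3.21 in endothelium, 16.9% ± 1.19 in smooth muscle and 2.94% ± 0.536 in fibroblasts. Type V chains supplied 17.9% ± 5.37 of endothelial collagen UMIs and 3.07% ± 0.356 of those of fibroblasts, and multiplexins 16.2% ± 2.21 in smooth muscle against 1.17% ± 0.326 in fibroblasts.

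Tests between cell types used the same 7 libraries with the library as a block, and called a gene at an adjusted p under 0.05 and an absolute log2 fold change of at least 1. Between endothelial cells and fibroblasts, 24 of 33 tested collagens were called, 4 higher and 20 lower in endothelium, where 29.9% of all 14077 genes were called (13.2% higher, 16.7% lower). The median collagen log2 fold change was -2.44 and that of all genes -0.05. Between smooth muscle and fibroblasts 28 of 36 were called, 7 higher and 21 lower in smooth muscle, against 36.7% of all genes (15.1% higher, 21.6% lower), with medians of -1.61 and -0.02. Between endothelium and smooth muscle 20 of 24 were called, 4 higher and 16 lower in endothelium, against 31.2% of all genes (16.8% higher, 14.5% lower). Chains that did not reach the count filter are low in both cell types of a pair. Those that reached it in 1 cell type alone had to differ, so these counts describe the family and are no test of it. The same holds for the counts of the later comparisons between cell types. Chains named below that are nearly absent from 1 cell type of a pair are given with their calls as a description, not as a test. Without flox control 1 the calls numbered 23, 27 and 19.

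**Figure D1:**
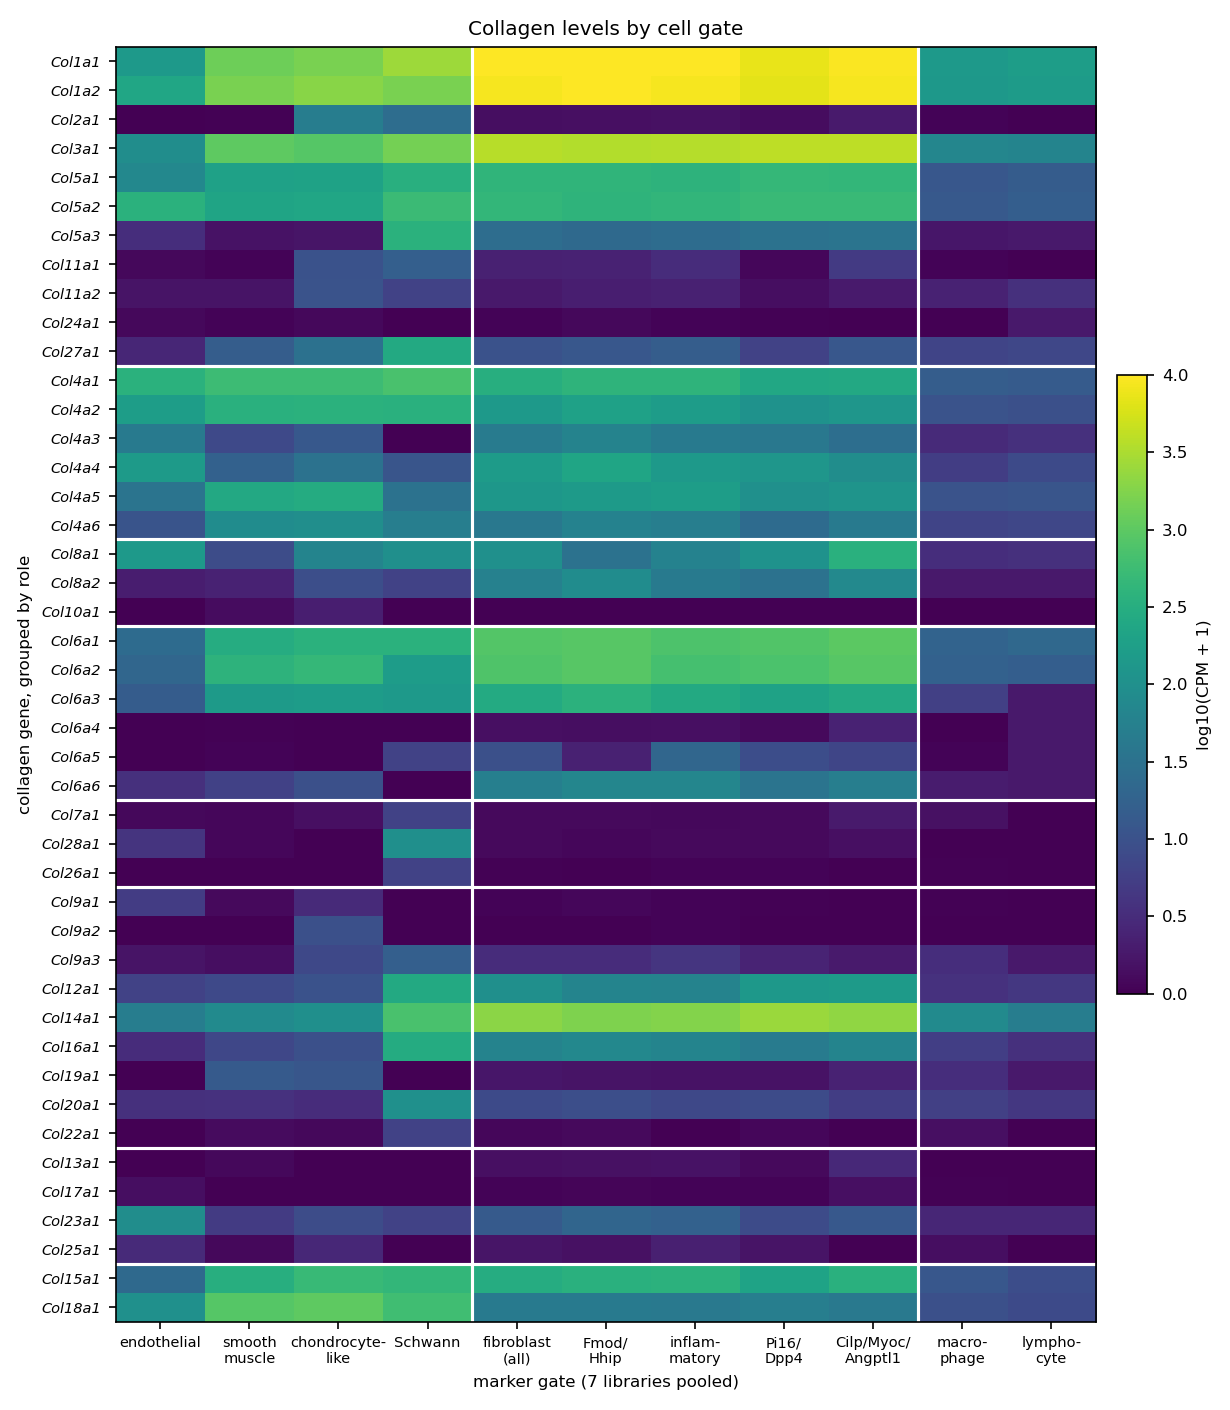
Level of each of the 44 collagens (y axis, ordered by role, white lines between roles) in each marker gate (x axis), as log10(CPM + 1) over the 7 libraries pooled. The type I and III chains are brightest in the fibroblast columns, while Col4a1, Col4a2 and Col18a1 are bright in the endothelial and smooth muscle columns and the macrophage and lymphocyte columns are darker.

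Of the fibrillar chains, those of types I and III, the load-bearing collagens of the wall, were higher in fibroblasts than in smooth muscle or endothelium. Col1a1 (chr11:94936224-94953042, GRCm38) ranged over 5548 to 11516 CPM with a median of 9633 in the 7 fibroblast libraries, over 877 to 1495 CPM with a median of 1292 in smooth muscle and over 92.2 to 475 CPM with a median of 119 in endothelium. Its log2 fold change was -6.18 (SE 0.29, edgeR adjusted p 3.98e-13) in endothelium and -2.77 (SE 0.09, edgeR adjusted p 7.48e-10) in smooth muscle, each against fibroblasts. Col1a2, the partner chain, and Col3a1, whose homotrimer is prominent in distensible vessels, were lower too. Their log2 fold changes were -5.43 (SE 0.21) and -5.23 (SE 0.22) in endothelium and -2.37 (SE 0.06) and -1.73 (SE 0.07) in smooth muscle. Fibroblast libraries held 6909, 8887 and 9539 CPM of Col1a2 and 1814, 3450.3 and 4801 CPM of Col3a1 as lowest, median and highest, and none of them overlapped the smooth muscle libraries. Endothelium was also lower than smooth muscle in Col1a1 (-3.33 (SE 0.24)), Col1a2 (-2.99 (SE 0.19)) and Col3a1 (-3.42 (SE 0.19)).

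The endothelial level of the type I chains was close to that of macrophages. Col1a1 read 475, 92.2 and 188 CPM in flox control libraries 1 to 3 and 118, 119, 97.0 and 152 CPM in knockout libraries 1 to 4 in endothelium. It read 462, 99.6 and 102 CPM in flox control libraries 1 to 3 and 94.2, 69.5, 91.6 and 111 CPM in knockout libraries 1 to 4 in macrophages. Flox control 1 was the highest library in both cell types. Against macrophages, the endothelial log2 fold change of Col1a1 was -0.01 (SE 0.13), of Col1a2 0.63 (SE 0.15) and of Col3a1 0.51 (SE 0.16), and none of the 3 was called. In that comparison, chosen after seeing the data, 13 of 20 collagens were called, 12 higher and 1 lower in endothelium, against 41.5% of all genes (20.6% higher, 21% lower). Without flox control 1 the count was 13 again. Whether the type I UMIs of endothelial cells were their own transcripts or free RNA of other cells was not tested.

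Type V chains, which set the diameter of type I fibrils, split in endothelium. Col5a2 read 249.5, 434 and 271 CPM in flox control libraries 1 to 3 and 305, 399, 349.6 and 336 CPM in knockout libraries 1 to 4, and Col5a1 stayed between 54.1 and 83.1 CPM. The ratio of Col5a2 to Col5a1 UMIs was 4.84 ± 1.05 (SD, n = 7) in endothelium, where each library was between 3.27 and 5.96. It was 1.08 ± 0.136 in fibroblasts and 1.13 ± 0.0794 in smooth muscle. Col5a2 in endothelium was within a log2 fold change of 1 of fibroblasts (-0.60 (SE 0.14)) and 4.57 (SE 0.26) above macrophages, while Col5a1 was lower than in fibroblasts (-2.69 (SE 0.16)) and smooth muscle (-1.64 (SE 0.15)). Col5a1 stood above macrophages too, at 335 of 4622335 UMIs in endothelium against 205 of 18683108 in macrophages. Col5a3, the third type V chain, was called lower than in fibroblasts in smooth muscle (-5.14 (SE 0.19)) and endothelium (-3.16 (SE 0.38)). Col27a1, a fibrillar chain of cartilage, was lower in endothelium than in fibroblasts (-2.44 (SE 0.40)) and smooth muscle (-3.23 (SE 0.39)). The type XI chain Col11a1 was lower in smooth muscle than in fibroblasts (-3.61 (SE 0.37)) from 9 and 272 UMIs. Col2a1, the cartilage fibril chain, had 0 UMIs in endothelium, 4 in smooth muscle and 89 in fibroblasts, and Col24a1 had 19 or fewer UMIs in each of the 5 cell types and was not tested.

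The 6 type IV chains form the basement membrane. In nearly every tissue the Col4a1 and Col4a2 chains assemble together, and in specialised ones Col4a3, Col4a4 and Col4a5 do, or Col4a5 and Col4a6. Their genes lie head to head in 3 pairs, each read outward from a shared start region. Of the 3 start regions those between Col4a4 and Col4a3 and upstream of Col4a6 and Col4a5 are printed because the levels in the following paragraphs separate these pairs by cell type. The transcripts of Col4a1 (chr8, minus strand, start 11312826) and Col4a2 (plus strand, start 11312805) overlap by 22 bases, so no sequence lies between them. The sequences are from RefSeq promoter records of GRCm38, 5′ to 3′, with gene starts from GENCODE vM21, and capitals mark a match to CCAAT or to GGGCGG on either strand (CCGCCC on the other).

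The 71 bases between Col4a4 and Col4a3 (chr1:82586850-82586920, minus strand, reading into Col4a4), the 250 bases before the start of Col4a6 (chrX:141474077-141474326, minus strand) and the 216 bases before the start of Col4a5 (chrX:141475169-141475384, plus strand) read:
between Col4a4 and Col4a3: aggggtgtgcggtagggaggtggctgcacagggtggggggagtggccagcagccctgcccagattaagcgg
upstream of Col4a6: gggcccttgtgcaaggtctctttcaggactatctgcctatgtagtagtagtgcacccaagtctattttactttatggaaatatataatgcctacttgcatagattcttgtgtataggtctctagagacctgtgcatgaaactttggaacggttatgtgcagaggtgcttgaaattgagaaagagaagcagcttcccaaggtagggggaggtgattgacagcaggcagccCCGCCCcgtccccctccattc
upstream of Col4a5: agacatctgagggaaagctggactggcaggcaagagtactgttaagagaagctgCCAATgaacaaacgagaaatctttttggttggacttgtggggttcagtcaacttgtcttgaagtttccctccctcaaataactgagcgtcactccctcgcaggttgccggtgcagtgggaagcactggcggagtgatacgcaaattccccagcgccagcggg

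The short region shared by Col4a3 and Col4a4 had a GC content of 69% and held neither motif nor TATAAA, where 13.3% of all 32851 RefSeq promoters hold CCAAT and 20.7% GGGCGG in a window of the same length. The starts of Col4a6 and Col4a5 are 1308 bases apart. The Col4a6 side held 1 CCGCCC and the Col4a5 side 1 CCAAT, which 32.7% and 30.8% of promoter windows of those lengths hold. Across the 38 RefSeq promoter records of 35 collagens, GGGCGG occurred in 57.9% and in 32.7% of all records, CCAAT in 34.2% and 33.8%, and TATAAA in 13.2% and 12.4%. A match describes letters and says nothing about a factor.

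The 3 type IV pairs had 3 patterns. Col4a1 read 672, 434 and 282 CPM in flox control libraries 1 to 3 and 609.8, 396, 359 and 239.6 CPM in knockout libraries 1 to 4 in endothelium. It ranged over 499.7 to 651 CPM with a median of 544 in smooth muscle and over 167 to 466 CPM with a median of 307 in fibroblasts. Endothelium did not differ from fibroblasts in Col4a1 (0.16 (SE 0.12, edgeR adjusted p 0.293)) by this test, and Col4a2 changed by less than the fold required (0.31 (SE 0.12)). Smooth muscle was higher than fibroblasts in both, by log2 fold changes of 1.01 (SE 0.11) and 1.53 (SE 0.13). That of Col4a1 was at the fold threshold, and under it without flox control 2 (0.99) or knockout 4 (0.89). Endothelial libraries stood far above macrophages in both chains (log2 fold changes 4.71 (SE 0.22) and 4.05 (SE 0.21)), and below smooth muscle in Col4a2 (-1.15 (SE 0.13)).

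Col4a3 and Col4a4, known from the filtering membrane of the kidney, were transcripts of endothelium and fibroblasts and low in smooth muscle. Col4a4 read 146, 209 and 221 CPM in flox control libraries 1 to 3 and 29.5, 112, 175 and 143 CPM in knockout libraries 1 to 4 in endothelium. In fibroblasts it read 148, 178 and 166 CPM in flox control libraries 1 to 3 and 171, 147, 158 and 97.0 CPM in knockout libraries 1 to 4. In smooth muscle the lowest, median and highest were 14.5, 15.4 and 26.9 CPM. Smooth muscle libraries lay below all endothelial and fibroblast libraries, and knockout 1 was the lowest endothelial library. Against smooth muscle the endothelial log2 fold change was 2.80 (SE 0.22, edgeR adjusted p 1.44e-08) for Col4a4 and 2.28 (SE 0.35) for Col4a3, and against macrophages 4.77 (SE 0.36) and 3.97 (SE 0.39). Against fibroblasts the smooth muscle log2 fold changes were -3.07 (SE 0.14) and -2.59 (SE 0.16), while endothelium and fibroblasts were not called apart (-0.28 (SE 0.20) and -0.25 (SE 0.23)). The ratio of Col4a4 to Col4a3 UMIs was 3.38 ± 0.537 in the 5 endothelial libraries with enough UMIs for it, and 3.46 ± 0.221 in fibroblasts and 2.46 ± 0.543 in smooth muscle (SD, n = 7 each).

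The X-linked pair had the reverse order. Col4a5 ranged over 208 to 288 CPM with a median of 250.4 in smooth muscle, 70.2 to 158 CPM with a median of 132 in fibroblasts and 14.8 to 55.4 CPM with a median of 37.2 in endothelium. Col4a6 ranged over 74.6 to 96.6 CPM with a median of 85.9 in smooth muscle, 16.8 to 52.8 CPM with a median of 41.7 in fibroblasts and 0 to 20.8 CPM with a median of 12.1 in endothelium. Smooth muscle libraries lay above all libraries of the other 2 cell types for both chains. Smooth muscle was higher than fibroblasts in Col4a5 (1.13 (SE 0.09)) and Col4a6 (1.26 (SE 0.16)). Endothelium was lower than smooth muscle in both (-3.17 (SE 0.14) and -3.36 (SE 0.23)) and than fibroblasts in both (-2.05 (SE 0.15) and -2.01 (SE 0.22)). Within each pair both chains were called the same way, or neither was called, in each of these 3 comparisons, apart from Col4a1 and Col4a2 between endothelium and smooth muscle, where Col4a2 alone was called.

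**Figure D2:**
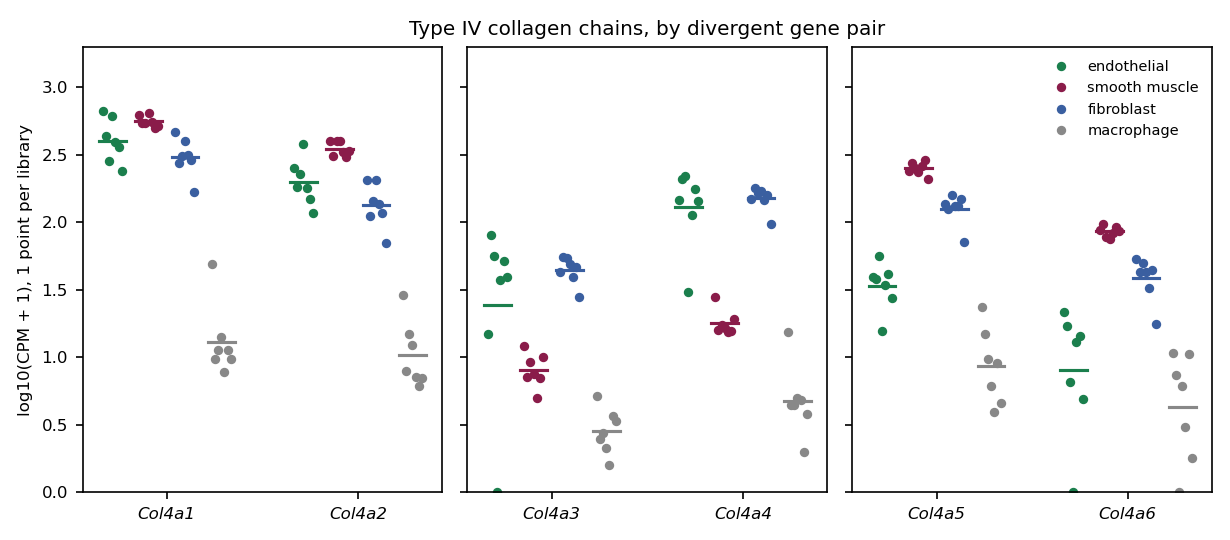
Levels of the 6 type IV chains as log10(CPM + 1), 1 panel per divergent gene pair, with 1 point per library in endothelial, smooth muscle, fibroblast and macrophage cells and a bar at the mean. Col4a3 and Col4a4 are high in endothelium and fibroblasts, with smooth muscle below them, and Col4a5 and Col4a6 are highest in smooth muscle.

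Type VIII, a short chain collagen that forms hexagonal lattices and is known from vascular and corneal endothelium, was shared between endothelium and fibroblasts. Col8a1 (chr16:57624258-57754737) read 315, 204 and 94.1 CPM in flox control libraries 1 to 3 and 157, 126, 166 and 69.9 CPM in knockout libraries 1 to 4 in endothelium. It ranged over 5.83 to 12.1 CPM with a median of 7.60 in smooth muscle. Every endothelial library was above every smooth muscle library, and the log2 fold change was 4.11 (SE 0.16, edgeR adjusted p 2.08e-12). Endothelium and fibroblasts were not called apart (0.35 (SE 0.21)), and endothelium was 5.79 (SE 0.27) above macrophages. The second chain, Col8a2, was mostly a fibroblast transcript, at 55.4 CPM over the pooled libraries against 1.08 in endothelium and 1.44 in smooth muscle. It was called lower in endothelium (-5.76 (SE 0.31)) and in smooth muscle (-5.16 (SE 0.25)). Col10a1, the short chain collagen of hypertrophic cartilage, was called higher in smooth muscle than in fibroblasts from 31 UMIs in smooth muscle and 3 in fibroblasts, a ratio of 26.3 with a 95% counting interval of 8.21 to 135. At 0.171, 0.299 and 1.00 CPM as lowest, median and highest over the 7 libraries, it was a rare transcript in smooth muscle too.

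Type VI chains, which assemble into beaded microfilaments around cells, were fibroblast and smooth muscle transcripts. Col6a1, Col6a2 and Col6a3 stood at 843, 786 and 274 CPM over pooled fibroblasts, at 302, 387 and 151 in smooth muscle and at 24.4, 19.7 and 13.4 in endothelium. Endothelium was lower than fibroblasts in all 3, at log2 fold changes of -5.21 (SE 0.20), -5.32 (SE 0.25) and -4.33 (SE 0.19). Against smooth muscle they were -3.80 (SE 0.20), -4.35 (SE 0.28) and -3.45 (SE 0.21). Col6a6 was called lower in endothelium (-4.42 (SE 0.36)) and smooth muscle (-3.27 (SE 0.14)) than in fibroblasts. Col6a5 had 1755 UMIs in fibroblasts, 8 in smooth muscle and 0 in endothelium, where it was at least 12.9-fold lower, taking a floor of 3 UMIs over the gate. Col6a4 had 93 UMIs in fibroblasts and 4 in smooth muscle and was called lower in smooth muscle (-2.82 (SE 0.58)).

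Col28a1, Col7a1 and Col26a1, listed together here, were nearly silent in the vessel wall cells. Col28a1 (chr6:7997808-8192617), a chain known from peripheral nerve, had 14 UMIs in 8 endothelial cells and 52 UMIs in fibroblasts. Its endothelial level of 0, 0.961 and 17.3 CPM as lowest, median and highest was called higher than in fibroblasts (3.69 (SE 0.77)). With so few fibroblast UMIs, Col28a1 reached the count filter through endothelium and had to come out higher, so this call is no test. Col7a1, the anchoring fibril of the skin, had 58 UMIs in fibroblasts, 15 in smooth muscle and 1 in endothelium, and Col26a1 had 9, 1 and 0.

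Fibril-associated collagens, which bind the surface of fibrils, were mostly fibroblast transcripts with 2 exceptions. Col14a1 ranged over 1613 to 2169 CPM with a median of 2003 in fibroblasts and was lower in endothelium (-5.60 (SE 0.28)) and smooth muscle (-4.39 (SE 0.20)). In endothelium it was also below macrophages (-1.04 (SE 0.21)), a call lost without flox control 2 (-0.78) or knockout 2 (-0.90). Col12a1 and Col16a1 followed, at -4.42 (SE 0.29) and -4.90 (SE 0.31) in endothelium and -3.59 (SE 0.13) and -3.20 (SE 0.15) in smooth muscle. Col20a1 was lower in both as well (-1.61 (SE 0.40) and -1.23 (SE 0.10)). The first exception was Col19a1, which had 1025 UMIs in smooth muscle and ranged over 0 to 26.3 CPM with a median of 11.6 there. It was higher there than in fibroblasts (4.13 (SE 0.26, edgeR adjusted p 8.02e-08)) and had 0 UMIs in endothelium, at least 19.1-fold lower than smooth muscle. The second exception was Col9a1, with 19 UMIs in 19 endothelial cells against 17 UMIs in all fibroblasts and a log2 fold change of 5.30 (SE 0.76). At so few fibroblast UMIs, Col9a1 reached the count filter through endothelium and had to come out higher, so its call is no test. Col9a3 was lower in smooth muscle (-2.36 (SE 0.26)) than in fibroblasts, and lower in endothelium from 3 UMIs, a ratio of 0.295 with a 95% counting interval of 0.0606 to 0.868. Col9a2 and Col22a1 had 2 and 24 UMIs in smooth muscle and 3 and 34 in fibroblasts.

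Among transmembrane collagens Col23a1, a chain shed from the cell surface, stood out in endothelium. It read 58.9, 105 and 66.4 CPM in flox control libraries 1 to 3 and 34.4, 64.3, 126 and 88.7 CPM in knockout libraries 1 to 4 in endothelium. It ranged over 10.3 to 16.2 CPM with a median of 13.4 in fibroblasts and 1.83 to 6.62 CPM with a median of 4.03 in smooth muscle. Every endothelial library lay above every library of the other 2 cell types, with log2 fold changes of 2.44 (SE 0.18, edgeR adjusted p 6.96e-10) against fibroblasts, 3.97 (SE 0.18) against smooth muscle and 5.24 (SE 0.34) against macrophages. Col25a1, Col13a1 and Col17a1 had 9, 0 and 2 UMIs in endothelium, and Col25a1 was lower in smooth muscle than in fibroblasts (-1.62 (SE 0.42)).

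The multiplexins, basement membrane collagens that carry sugar chains, included Col18a1, which had the highest log2 fold change of smooth muscle over fibroblasts after the rare Col10a1. Located at chr10:77052178-77166548, this gene, from whose product endostatin is cleaved, ranged over 810.4 to 954 CPM with a median of 872 in smooth muscle and over 33.9 to 58.9 CPM with a median of 37.3 in fibroblasts, without overlap (4.51 (SE 0.11, edgeR adjusted p 1.44e-10)). In endothelium it read 93.6, 138 and 60.9 CPM in flox control libraries 1 to 3 and 339, 92.4, 99.9 and 65.4 CPM in knockout libraries 1 to 4. This was above fibroblasts (1.16 (SE 0.18)) and below smooth muscle (-3.30 (SE 0.20)). Knockout 1 was far above the other endothelial libraries, and without it the log2 fold change against fibroblasts was 0.95, under the fold required. Col15a1, which binds basement membrane to fibrils, was not called between smooth muscle and fibroblasts (0.38 (SE 0.27)), and was lower in endothelium than in either (-3.53 (SE 0.26) and -3.95 (SE 0.41)). Knockout 1 again read highest of the endothelial libraries, at 157 CPM against 9.71 to 45.1 CPM in the others.

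Most collagens were not called between chondrocyte-marker cells and smooth muscle, and the cartilage chains came from a few of the cells. Against smooth muscle 6 of 28 collagens were called, 6 higher and 0 lower, where 1.52% of all 10597 genes were called (1.42% higher, 0.0944% lower). Chains nearly absent from smooth muscle, such as Col2a1 and Col9a2, reached the count filter through chondrocyte-marker cells alone and had to differ. The count is therefore no test of the family. The 6 called were Col2a1, Col9a2, Col9a3, Col8a1 (2.90 (SE 0.36, edgeR adjusted p 4.29e-06)), Col8a2 (2.69 (SE 0.58)) and Col27a1 (1.04 (SE 0.29)). DESeq2 called 3 of them (Col9a3, Col8a2 and Col8a1; 1.53% of all genes), and 3 were called without flox control 3 (Col2a1, Col8a1 and Col8a2; 1.13%). At the limit of 10% mitochondrial UMIs 1 of 18 was called, Col8a1 (0.834%). Col8a1 had 276 UMIs in 54 of the cells. Of the chains of cartilage fibrils, Col2a1 had 211 UMIs in 10 of the 684 cells, 117 of them in 1 cell. It had 0, 1 and 182 UMIs in the 3 flox control libraries against 14, 14, 0 and 0 in the 4 knockout libraries. Col9a2 had 38 UMIs in 7 cells, a ratio to smooth muscle of 355 with a 95% counting interval of 91.6 to 3034, and Col9a3 had 28 UMIs in 12 cells. All 211 Col2a1 UMIs came from the 75 cells with at least 3 markers, whose pooled levels were 418.5 CPM of Col2a1, 428 CPM of Col8a1, 77.4 CPM of Col11a1 and 75.4 CPM of Col9a2.

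Against fibroblasts, chondrocyte-marker cells had 26 of 36 collagens called, 11 higher and 15 lower, where 28.4% of all genes were called (11.2% higher, 17.2% lower). Unadjusted p-values were under 0.05 for 32 of the 36, against 55% of all genes. Smooth muscle chains were among the higher ones: Col18a1 (4.53 (SE 0.12)), Col19a1 (3.73 (SE 0.55)), Col4a2 (1.39 (SE 0.15)), Col4a6 (1.14 (SE 0.18)) and Col4a5 (1.02 (SE 0.12)). At the limit of 10% mitochondrial UMIs, Col19a1 was at -0.0730 (SE 1.72) and Col4a2, Col4a6 and Col4a5 were at 0.95, 0.84 and 0.79, so of these 5 calls that of Col18a1 remained. The cartilage chains Col2a1 (5.58 (SE 0.80)), Col9a1 (4.31 (SE 0.94)), Col11a1 (2.19 (SE 0.75)), Col11a2 (2.55 (SE 0.69)) and Col27a1 (1.61 (SE 0.30)) were higher too, and Col9a2 had a ratio of 602 with an interval of 191 to 3048. Without flox control 3 the calls of Col11a1 (0.80) and Col11a2 (1.19) were lost. Called lower were, among others, Col14a1 (-4.24 (SE 0.18)), Col12a1 (-3.32 (SE 0.21)), Col16a1 (-2.83 (SE 0.26)), Col6a6 (-2.79 (SE 0.22)), Col8a2 (-2.75 (SE 0.31)), Col1a1 (-2.69 (SE 0.11)), Col4a4 (-2.34 (SE 0.15)) and Col1a2 (-2.27 (SE 0.10)). Col6a5 was at 0 UMIs, at least 12.3-fold lower, and Col5a3 at 3 UMIs, a ratio of 0.0259 with an interval of 0.00533 to 0.0756.

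Schwann cells, the glia of peripheral nerve, were few, and their higher chains were Col28a1, Col27a1, Col5a3, Col20a1, Col18a1, Col16a1 and Col2a1. The gate held 24, 14 and 12 cells in the 3 flox control libraries and 16, 8, 7 and 1 in the 4 knockout libraries, so the test was run on the 6 libraries with at least 5 cells, a limit set after seeing the data. Of 32 collagens 20 were called against fibroblasts, 7 higher and 13 lower, where 20.1% of all 12637 genes were called (5.06% higher, 15% lower). Col28a1 read 74.9, 267 and 112 CPM in flox control libraries 1 to 3 and 66.3, 0 and 0 CPM in knockout libraries 1 to 3. It had 19 UMIs in all, and its log2 fold change was 7.34 (SE 0.73). Knockout libraries 2 and 3 had 0 UMIs of it, and the other 4 libraries had at least 1. Nearly absent from fibroblasts, Col28a1 and Col2a1 reached the count filter through Schwann cells and had to come out higher. Their calls are therefore no test.

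The other chains that were higher in Schwann cells were seen in each of the 6 libraries, apart from Col20a1 and Col2a1. Col5a3, a type V chain, read 206, 415 and 373 CPM in flox control libraries 1 to 3 and 442, 508 and 352 CPM in knockout libraries 1 to 3 (3.03 (SE 0.36, edgeR adjusted p 8.12e-16)). Col27a1 read 149.8, 445 and 149 CPM in flox control libraries 1 to 3 and 354, 508 and 132 CPM in knockout libraries 1 to 3 (3.93 (SE 0.38)). Col18a1 read 431, 356 and 410.5 CPM in flox control libraries 1 to 3 and 774, 1015 and 1055 CPM in knockout libraries 1 to 3 (2.91 (SE 0.31)). All 6 Schwann libraries were above the fibroblast range of both Col5a3 and Col27a1. Col16a1 (1.25 (SE 0.35)) and Col20a1 (2.96 (SE 0.51)) were called higher as well, and so was Col2a1 (4.98 (SE 1.04)) from 5 UMIs in 3 cells. Col1a1 (-3.09 (SE 0.21)), Col1a2 (-3.46 (SE 0.22)), Col3a1 (-2.24 (SE 0.23)), Col6a2 (-3.15 (SE 0.33)), Col6a1 (-2.17 (SE 0.29)), Col14a1 (-2.40 (SE 0.25)) and Col4a5 (-2.98 (SE 0.54)) were lower. Col4a3 and Col6a6 had 0 Schwann UMIs, at least 3.01-fold and 3.57-fold lower. Col4a4 had 2 UMIs, a ratio of 0.0640 with an interval of 0.00775 to 0.231, and Col8a2 had 1 UMI, a ratio of 0.0907 with an interval of 0.0023 to 0.506. Col4a1 and Col4a2, the common basement membrane pair, were not called (0.13 (SE 0.27) and 0.27 (SE 0.32)). The Schwann gate carried 858 to 2116 CPM of the fibroblast marker list in these 6 libraries, whose part in its type I UMIs was not tested.

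Collagens also differed between fibroblast states, which are described without a test because the states were first drawn from clusters of these cells over all genes. Col8a1 read 21.8, 31.4 and 57.6 CPM as lowest, median and highest of 7 libraries in Fmod/Hhip cells, 42.5, 61.4 and 73.6 CPM in inflammatory cells. It read 87.4, 95.5 and 164 CPM in Pi16/Dpp4 cells and 163, 341 and 442 CPM in Cilp/Myoc/Angptl1 cells. Its libraries in Pi16/Dpp4 cells lay above those of the first pair of states, and its libraries in Cilp/Myoc/Angptl1 cells reached the highest values of any gate. The other short chain, Col8a2, had the opposite order, at 64.2, 72.4 and 117 CPM in Fmod/Hhip cells and 13.2, 31.5 and 38.3 CPM in Pi16/Dpp4 cells. Col6a5 read 7.81, 15.8 and 39.6 CPM in inflammatory cells and 0.729, 0.995 and 2.56 CPM in Fmod/Hhip cells, without overlap. Col4a4 read 165, 211 and 247 CPM in Fmod/Hhip cells and 20.5, 98.0 and 111 CPM in Cilp/Myoc/Angptl1 cells. The fibril-associated chains Col12a1 and Col14a1 were high in Pi16/Dpp4 cells, at 98.5, 141 and 193 CPM and 2154, 2381 and 2759 CPM, against 35.2, 59.5 and 84.8 CPM and 1555, 1682 and 1794 CPM in Fmod/Hhip cells. Col1a1 leaned the other way, at 9256, 12095 and 14095 CPM in Fmod/Hhip cells and 4049, 7226 and 8949 CPM in Pi16/Dpp4 cells, and the ratio of Col3a1 to Col1a1 UMIs was 0.279 ± 0.0439 (SD, n = 7) and 0.528 ± 0.111 in these states.

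Between genotypes the comparison asks whether losing Slc38a2 in the endothelium accompanies a change in the cells of the wall under a high-salt diet. With the filter on low counts, no collagen was called by edgeR in the 10 gates tested, and neither was any other gene (0% of 7693 genes in endothelium, 0% of 12507 in smooth muscle and 0% of 15081 in fibroblasts). Unadjusted p-values were under 0.05 for 3 of 18 collagens in endothelium (6.02% of all genes), 1 of 26 in smooth muscle (4.47%), 4 of 37 in fibroblasts (4.58%), 1 of 19 in chondrocyte-marker cells (4.28%), 3 of 14 in Schwann cells (6.85%) and 11 of 16 in macrophages (8.1%). In the fibroblast states they were under 0.05 for 2 of 27 in Fmod/Hhip cells (5.09%), 1 of 28 in inflammatory cells (4.05%), 1 of 27 in Pi16/Dpp4 cells (5.29%) and 2 of 22 in Cilp/Myoc/Angptl1 cells (5.07%). DESeq2 called 1 collagen in fibroblasts, Col8a1 (0.0597% of all genes, 9 of 15081), and 0 in each of the other gates, where it called at most 8 genes (in smooth muscle). Without the filter on low counts, edgeR called 6 of 38 collagens lower in knockout chondrocyte-marker cells (0.471% of all genes) and 5 of 38 lower in knockout macrophages (0.509%). These were Col2a1, Col8a1, Col9a3, Col11a1, Col11a2 and Col27a1 in the first gate and Col1a1, Col3a1, Col4a5, Col5a1 and Col6a1 in macrophages. In cells with at least 3 chondrocyte markers, flox control 3 held 182 of 211 Col2a1 UMIs and 21 of 22 of Col9a3. It held 31 of 39 of Col11a1, 33 of 39 of Col11a2, 36 of 55 of Col27a1 and 100 of 216 of Col8a1. Flox control 1 was the highest macrophage library in Col1a1. The fits without the filter were not repeated with a library left out. In the other 8 gates it called 0 collagens without the filter.

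In endothelium, the cell type named in the knockout label, 13 of 18 collagens had a knockout log2 fold change below 0 and 5 above it, with a median of -0.39 (all genes -0.02). Without flox control 1 the counts were 11 and 7 and the median -0.03. The smallest p was that of Col3a1, which read 263, 102 and 149.5 CPM in flox control libraries 1 to 3 and 103, 73.7, 78.8 and 60.9 CPM in knockout libraries 1 to 4 (-1.08 (SE 0.30, edgeR adjusted p 0.811)). Without flox control 1 the log2 fold change was -0.62. Col1a2, Col1a1, Col8a1 and Col4a4 followed, at -0.79 (SE 0.30), -0.93 (SE 0.42), -0.66 (SE 0.34) and -0.56 (SE 0.38), none of which passed. They were at -0.58, -0.035, -0.27 and -0.72 without flox control 1. The groups overlapped for all 18 collagens, where 7.63% of all genes tested did not overlap. Smooth muscle markers in the endothelial gate were at 631 to 1261 CPM in control libraries and at 404 to 557 CPM in knockout libraries, and fibroblast markers at 825 to 1528 and 544 to 1254 CPM. Their part in the type I and III values was not tested.

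In fibroblasts Col8a1 was the collagen with the smallest p. It read 76.9, 79.7 and 65.5 CPM in flox control libraries 1 to 3 and 119.6, 105, 126 and 116 CPM in knockout libraries 1 to 4, so each knockout library was above each control library. The log2 fold change was 0.69 (SE 0.12, edgeR adjusted p 0.964), with an unadjusted p of 0.00028, and DESeq2 gave 0.69 with an adjusted p of 0.0032. Leaving out each library in turn kept the edgeR log2 fold change between 0.61 and 0.73, with adjusted p-values from 0.466 to 1, and it was 0.68 without flox control 1. The same order held in inflammatory fibroblasts, at 42.5, 45.2 and 52.2 CPM in flox control libraries 1 to 3 and 73.6, 61.4, 70.8 and 70.3 CPM in knockout libraries 1 to 4 (0.58 (SE 0.17, edgeR adjusted p 0.99)), but with the stricter gate the log2 fold change there was -0.0557. The groups overlapped in the other 3 states, with log2 fold changes of 0.46 (SE 0.29) in Fmod/Hhip, 0.26 (SE 0.21) in Pi16/Dpp4 and -0.0038 (SE 0.27) in Cilp/Myoc/Angptl1 cells. In endothelium its log2 fold change was -0.66 (SE 0.34). The difference between the 2 cell types did not pass a test of the interaction (-1.28 (SE 0.31, edgeR adjusted p 1)). Without the filter on low counts this interaction was called (-1.35 (SE 0.27, edgeR adjusted p 0.00345)), and over the other alternatives its adjusted p was 0.139 to 1.

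**Figure D3:**
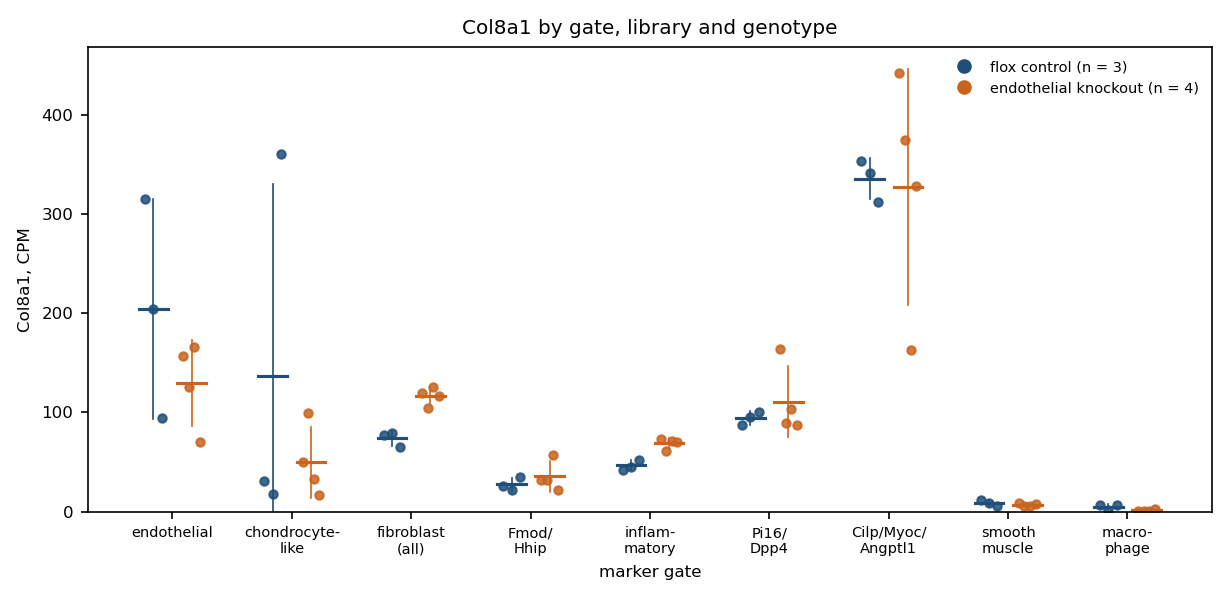
Col8a1 level (y axis, CPM) by marker gate (x axis), 1 point per library, with bars at the mean and lines of 1 SD for 3 flox control and 4 knockout libraries. In fibroblasts the knockout libraries, at 105 to 126 CPM, lie above the control libraries, at 65.5 to 79.7 CPM; in endothelium the groups overlap.

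The groups also did not overlap for 2 other collagens of fibroblasts, Col14a1 above and Col7a1 below, so 3 of 37 in all, where 4.82% of all genes did not overlap. Col14a1 read 1947, 1969 and 1613 CPM in flox control libraries 1 to 3 and 2128, 2065, 2003 and 2169 CPM in knockout libraries 1 to 4. In Pi16/Dpp4 cells it read 2275, 2251 and 2154 CPM in flox control libraries 1 to 3 and 2759, 2381, 2640.0 and 2595 CPM in knockout libraries 1 to 4 (0.25 (SE 0.13, edgeR adjusted p 0.901)). Col7a1 had levels of 0.438, 0.398 and 0.638 CPM in flox control libraries 1 to 3 and 0.169, 0.250, 0.164 and 0 CPM in knockout libraries 1 to 4, from 58 UMIs (-1.52 (SE 0.60)). The next smallest p-values in fibroblasts were those of Col11a2 (-0.86 (SE 0.35)), Col19a1 (-1.37 (SE 0.57)) and Col18a1 (-0.30 (SE 0.16)). Type I chains gave no such order: Col1a1 read 8624, 9633 and 8838 CPM in flox control libraries 1 to 3 and 10985, 10774, 11516 and 5548 CPM in knockout libraries 1 to 4, with knockout 4 far under the other 3. In the states, 2 of 27 collagens did not overlap in Fmod/Hhip cells (Col6a6 and Col23a1, lower; 4.95% of all genes), 1 of 28 in inflammatory cells (Col8a1; 5.26%), 1 of 27 in Pi16/Dpp4 cells (Col14a1; 5.94%) and 2 of 22 in Cilp/Myoc/Angptl1 cells (Col4a6 and Col5a3, lower; 6.03%). The collagens with the 5 smallest p-values were Col8a2, Col6a6, Col23a1, Col8a1 and Col18a1 in Fmod/Hhip cells, Col8a1, Col18a1, Col4a6, Col5a3 and Col14a1 in inflammatory cells. They were Col6a6, Col14a1, Col6a3, Col4a5 and Col18a1 in Pi16/Dpp4 cells and Col5a3, Col4a6, Col5a1, Col18a1 and Col4a4 in Cilp/Myoc/Angptl1 cells, and none passed.

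In smooth muscle, 1 of 26 collagens did not overlap, where 5.05% of all genes did not. That was Col12a1, at 8.54, 9.13 and 9.38 CPM in flox control libraries 1 to 3 and 7.07, 5.50, 4.86 and 4.56 CPM in knockout libraries 1 to 4 (-0.59 (SE 0.19, edgeR adjusted p 0.973)). Col6a1 (0.22 (SE 0.11)), Col4a3 (-0.45 (SE 0.27)), Col19a1 (-0.74 (SE 0.45)) and Col8a2 (-0.84 (SE 0.59)) came next and did not pass. Without flox control 1 Col8a2 was at 0.28, the opposite direction, and Col19a1 and Col4a3 were at -0.29 and -0.24. In chondrocyte-marker cells, the smallest p was that of Col2a1 (-3.99 (SE 1.53, edgeR adjusted p 1)), which rests on the 182 UMIs of flox control 3 and was 3.57 without that library. Col27a1, Col4a6, Col8a1 and Col14a1 followed, of which Col8a1 moved from -1.24 to 1.18 without that library, and 0 of 19 collagens had groups that did not overlap (6.2% of all genes). Schwann cells had Col1a1 (1.43 (SE 0.45, edgeR adjusted p 0.465)), Col18a1 (1.21 (SE 0.44)), Col1a2 (0.83 (SE 0.39)), Col4a2 (0.84 (SE 0.55)) and Col16a1 (0.72 (SE 0.64)) as the smallest p-values in 3 libraries against 3.

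Macrophages were tested in the same way. All 16 collagens tested had log2 fold changes below 0 in knockout macrophages, with a median of -1.24 (all genes -0.01). Col4a5 (-1.63 (SE 0.39, edgeR adjusted p 0.582)), Col3a1, Col5a1, Col1a1 and Col15a1 had the smallest p-values, and Col5a1, Col4a5 and Col27a1 did not overlap (8.38% of all genes). Without flox control 1, 6 were above 0 and 13 below it of 19 tested, and the median was -0.30. The genotype effect was then compared between pairs of cell types. With the filter on low counts, edgeR called 0 of 24 for endothelium and smooth muscle, 0 of 33 for endothelium and fibroblasts and 0 of 36 for smooth muscle and fibroblasts (0% of all genes in each), with unadjusted p under 0.05 for 2, 3 and 3 (3.3%, 3.61% and 3.11% of all genes). DESeq2 called 0 collagens in each. Without the filter edgeR called 1 collagen, Col8a1, between endothelium and fibroblasts (0.0578% of all genes), and 0 in the other pairs.

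Collagen chains are hydroxylated, folded, trimmed and crosslinked by helper proteins, and a list of these was read in the same comparisons. Of 29 helpers tested in endothelium against fibroblasts, 1 was called higher and 16 lower, where 13.2% and 16.7% of all genes were. The crosslinker Loxl1 (log2 fold change -5.03, SE 0.17), the procollagen protease enhancer Pcolce (-5.55, SE 0.22) and the procollagen proteases Adamts2 (-5.91, SE 0.25) and Bmp1 (-3.15, SE 0.14) had the smallest p-values. Smooth muscle had 2 higher and 14 lower of 30 (15.1% and 21.6% of all genes), with Pcolce2 (-3.33, SE 0.10), Adamts2 (-2.89, SE 0.10) and Bmp1 (-2.47, SE 0.09) lower and P3h2, a prolyl 3-hydroxylase that acts on type IV collagen, higher (3.96, SE 0.14). Between endothelium and smooth muscle 2 were higher and 7 lower of 26 (16.8% and 14.5% of all genes), among them Loxl1 (-3.90, SE 0.16), Adamts2 (-3.02, SE 0.23) and the lysyl hydroxylase Plod2 (-1.95, SE 0.15), while the collagen chaperone Serpinh1 (-0.98, SE 0.10) was under the fold required. Schwann cells had 1 higher and 20 lower of 28 (5.06% and 15% of all genes), including Pcolce2 (-5.97, SE 0.44), Pcolce (-6.13, SE 0.47), Lox (-5.45, SE 0.50) and Adamts2 (-3.29, SE 0.35). Chondrocyte-marker cells had 0 of 25 called against smooth muscle by edgeR, where 1.52% of all genes were (2 at an unadjusted p under 0.05; the smallest p was that of Pcolce2, 0.52, SE 0.10), and 1 higher and 15 lower of 30 against fibroblasts (11.2% and 17.2% of all genes). Endothelium against macrophages had 13 higher and 1 lower of 26 (20.6% and 21% of all genes), with Lox, Crtap, P4ha2 and P3h3 first.

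Collagen receptors were read likewise. In endothelium against fibroblasts 2 were higher and 4 lower of 9 (13.2% and 16.7% of all genes), with the discoidin receptor Ddr2 (-4.62, SE 0.16), the endocytic receptor Mrc2 (-3.67, SE 0.17) and the integrin chain Itga2 (-3.63, SE 0.34) lower and Itga1, whose integrin binds type IV collagen, higher (1.58, SE 0.14). Smooth muscle had 3 higher and 4 lower of 9 (15.1% and 21.6% of all genes), with Itgb1 (1.89, SE 0.06) and Itga1 (1.84, SE 0.07) higher and Mrc2 (-2.14, SE 0.06) and Itga11 (-4.38, SE 0.21) lower. Endothelium was lower than smooth muscle in 4 of 6, Ddr2, Itgb1, Mrc2 and Itga10, and higher in 0 (14.5% and 16.8% of all genes). In Schwann cells Itga1 (1.93, SE 0.30) and Itga2 (2.02, SE 0.43) were higher and Ddr2 (-5.08, SE 0.42) and Mrc2 (-5.19, SE 0.84) lower. Chondrocyte-marker cells had Itga10, the integrin chain of cartilage cells, higher than smooth muscle (1.21, SE 0.25). Between genotypes edgeR called 0 helpers and 0 receptors in each of the 10 gates, with at most 4 helpers and 2 receptors, both in macrophages, at an unadjusted p under 0.05.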

How the data were processed

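The authors deposited 1 matrix of UMI counts for each library, not normalized, with genes in one dimension and cell barcodes in the other. The build was mm10, and the tools named were STARsolo 2.7.10a, Seurat and CASAVA 1.8, per the submitters' processing notes. Which tool did what, the annotation and the strand setting are not stated there. Per the labels' protocols, aortas were digested with proteases that included collagenases, and cells were stained for viability before capture. Library sums were 22646246 to 73102988 UMIs.

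From these counts, cells with at least 200 genes and at most 25% mitochondrial UMIs were kept, and doublets were removed with Scrublet in scanpy 1.11.5 (Python 3.11.15, expected rate 0.06), which marked 0.869% to 2.07% of the cells of a library. Cells were gated by the number of marker genes detected, with minimums of 5 for endothelium, 6 for smooth muscle and fibroblasts, 3 for Schwann cells and 5 for macrophages. These minimums were set after seeing the data, and 1370 cells past more than 1 cell type gate were left out. Counts were summed per library and gate. The 44 collagens, the helper and receptor lists and the gates were chosen with earlier results of these data known. Levels are counts per 1000000 UMIs of the gate (CPM), not scaled for transcript length.

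Tests used edgeR 4.0.16 in R 4.3.3 (quasi-likelihood, TMM factors, filterByExpr, Benjamini-Hochberg adjustment over all genes tested) on libraries with at least 20 cells of a gate. Only 1 library had 20 Schwann cells, so Schwann cells were tested at 5 cells or more. Cell types were compared with the library as a block; the comparison of endothelium with macrophages was added after seeing the data. In each comparison of cell types the text names up to 10 called collagens per direction, between genotypes the 5 smallest p-values where none is called, and for helpers and receptors up to 4 by p. The scripts were tested on simulated counts. DESeq2 1.42.0, no count filter, a stricter gate, a 10% mitochondrial limit, doublets kept, each library left out and a replicate block were tried as alternatives. Counting intervals are exact 95% intervals and, like floors of 3 UMIs, cover counting error only. Of the 44 genes, 13 share exonic bases with another gene in GENCODE vM21, at most 6.07% (Col9a3), and reads of overlapping genes cannot be told apart where strand is not stated. UMI counts of gated cells can include free RNA of other cells.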

Additional observations from a re-analysis of the deposited data

Results flagged for a closer look

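The check covered 77 sets of 4 knockout libraries, each for 1 collagen of at least 20 CPM in 1 gate. In 9 of them 1 library was far from the other 3. In independent sets chance alone would mark about 1 in 20. These sets share the same 4 libraries and are not independent, so that rate is no test of the 9. All 9 fell on knockout 1 or knockout 4. Libraries of the flox control, with 3 per gate, were not checked this way.

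Knockout 1 was far above the others in 3 endothelial chains. Its endothelial gate held 49 cells, against 172 to 407 in the other knockout libraries. Col18a1, the source of endostatin, read 339 CPM there against 65.4 to 99.9 CPM in the other 3 knockout libraries. Col15a1, the other multiplexin, read 157 CPM against 9.71 to 17.4 CPM, and the beaded filament chain Col6a1 read 49.2 CPM against 21.1 to 22.8 CPM. In fibroblasts, Col18a1 of the same library stood at 52.0 CPM, above 33.9 to 35.5 CPM in the other knockout libraries. The highest fibroblast library of Col18a1 was a flox control, so this value lay within the range of all libraries.

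Knockout 4 was far below the others in type I and V chains. Its fibroblasts held 5548 CPM of Col1a1, where the others held 10774 to 11516 CPM, and 6909 CPM of Col1a2, where the others held 9340 to 9539 CPM. Col5a1 read 119 CPM in its smooth muscle cells against 187 to 197 CPM, and 108 CPM in its chondrocyte-marker cells against 212 to 222 CPM. Col14a1 went the other way in its chondrocyte-marker cells, at 258 CPM against 68.7 to 94.6 CPM. Knockout 4 held 23 chondrocyte-marker cells, against 76 to 251 in the other knockout libraries. It held 291 smooth muscle cells, against 2576 to 4653.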

How the results depend on the processing

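Of the counts of called collagens and the collagen shares, 132 values under the alternative settings and 139 with 1 library left out kept within 1.5 times, or within 1 SD, of the value reported, and 11 and 1 did not. The values kept include genotype and interaction counts of 0 that stayed at 0. The shares were not recomputed with a library left out. DESeq2 called 1 collagen between genotypes in fibroblasts (Col8a1) and 3 between chondrocyte-marker cells and smooth muscle. The limit of 10% mitochondrial UMIs left 1 call there, and leaving out each library in turn gave 3 to 8, with 3 without flox control 3 and 8 without knockout 4. With no filter on low counts, 6 collagens were called between genotypes in chondrocyte-marker cells (0.471% of all genes), 5 in macrophages (0.509%), and 1 interaction (0.0578%) between endothelium and fibroblasts (Col8a1). The cause was not tested. Flox control 3 held most UMIs of Col2a1, Col9a3, Col11a1, Col11a2 and Col27a1 in cells with at least 3 chondrocyte markers. Subtracting the lymphocyte level gave collagen shares of 0.168% in endothelium, 0.684% in smooth muscle and -0.0112% in macrophages. The share in chondrocyte-marker cells was 1.10% with the stricter gate and 1.07% at 10% mitochondrial UMIs.

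Some log2 fold changes changed sign. Col8a1 between genotypes in inflammatory fibroblasts was -0.0557 with the stricter gate, and Col19a1 in chondrocyte-marker cells against fibroblasts was -0.0730 at 10% mitochondrial UMIs. Leaving out 1 library moved Col8a2 between genotypes in smooth muscle over -1.17 to 0.28 (without flox control 1), and in chondrocyte-marker cells Col2a1 over -4.64 to 3.57 and Col8a1 over -1.85 to 1.18 (both without flox control 3). None of these 4 genotype values passed the test to begin with. For single named collagens, 13 calls were lost and 9 gained over the other settings, and 9 were lost with 1 library left out.

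With the replicate number as a block, edgeR called 0 collagens between genotypes in each gate. Flox control libraries were numbered by name. The second one's title also gives it replicate number 1, so this block rests on the names. Correlations of the deviations of same-numbered libraries were 0.146, -0.00752 and 0.00424 in endothelium, 0.156, -0.00259 and 0.229 in fibroblasts and 0.16, 0.207 and 0.0608 in smooth muscle, where flox control 3 correlated best with knockout 4 (0.117). In macrophages they were 0.012, -0.0502 and 0.0812. In none of the 4 gates were all 3 over 0.1, so the numbers were not taken to pair the libraries. Not run were the genotype tests of chondrocyte-marker cells at 10% mitochondrial UMIs, those of chondrocyte-marker, Fmod/Hhip and Cilp/Myoc/Angptl1 cells with the stricter gate, and Schwann tests at 20 cells, for want of cells. Between 1079 endothelial cells and 82 Schwann cells, depth limited the rarest chains: a chain at 0 UMIs over the gate could still reach 0.649 CPM in endothelium and 15.4 CPM in Schwann cells.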
